A study of Mus musculus with 8 samples.

Results

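The effect of Rbbp7 siRNA alone was read from 4 of the 8 messenger RNA libraries of a mouse late morula series. Of these, 2 were libraries of embryos whose zygotes had received siRNA against Rbbp7. The other 2 were libraries of control embryos whose zygotes had received a non-specific siRNA. All embryos were collected 78 h after fertilization, stage E3.25 in the sample titles, and no strain or other allele is given for any group. The values are gene abundances that the authors normalised with DESeq2, compared here as log2(value + 1), and 12565 of the 19058 genes in the table had a mean of at least 10 over all 8 columns and were tested. The other 4 libraries, 2 of embryos given Rbbp4 siRNA and 2 of embryos given both siRNAs (the double siRNA group) served to estimate the spread and to see the same Rbbp7 siRNA act on a second set of embryos. Every library is made from whole embryos, so fewer cells of a type and less RNA per cell cannot be told apart. Whether the paired libraries of a group are separate pools of embryos is not stated in the labels. The p-values therefore reflect the variation among these 8 libraries alone, and it may be technical.

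RBBP7 and its close relative RBBP4 are WD-repeat proteins that hold histones H3 and H4 and sit in several chromatin complexes, among them the NuRD and SIN3 deacetylase complexes and Polycomb repressive complex 2. At the late morula stage the outer cells of the mouse embryo become a polarised epithelium, the future trophectoderm, with keratin filaments, apical microvilli, endocytic receptors and junctions that later seal the blastocyst cavity. YAP with TEAD4 switches on Cdx2 and Gata3 in these outer cells, while the inner cells keep Nanog, Sox2 and Fgf4. The comparison asks which of these programmes differed in RNA after Rbbp7 siRNA by itself, without Rbbp4 siRNA. Protein levels of RBBP7 and RBBP4 are not part of the data.

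Rbbp7 itself (ENSMUSG00000031353, chromosome X, 162760402 to 162779092, GRCm38) had a normalised abundance of 8399 and 7205 in the control libraries and of 298 and 293 in the Rbbp7 siRNA libraries. It fell to 3.79% of the control (log2 change −4.71 ± 0.14, SE, limma adjusted p = 7.87e-07), and the groups were far from overlapping. Rbbp4 had 5300.1 and 4710.0 in the control and 4369.7 and 4467 after Rbbp7 siRNA, a log2 change of −0.18 ± 0.15 with adjusted p = 0.738. Defining late morula transcripts were present in all 4 libraries, with Pou5f1 at 13210.4 to 17835, Cdh1 at 6326 to 7086 and Krt8 at 2400.1 to 6946. Fgf4 was scarcer, at 150.4 to 605. Krt8 and Fgf4 also differed between the groups, as given below. Markers of other cells were scarce: over all 8 libraries the summed markers of cumulus and granulosa cells came to 42.8 to 140, of oviduct epithelium to 100.5 to 152, of blood to 8.8 to 35.6 and of sperm to 0 to 4.92. The fibroblast markers summed to 269 and 303 in the control and to 193 and 204 after Rbbp7 siRNA, mostly from Fbln1, and their part in the results was not tested. Control replicate 1 stood somewhat apart, with 3937 genes listed at 0 against 2644 to 3237 elsewhere and 6.21% mitochondrial signal against 4.26% to 5.53%. The total abundance of the 8 libraries ran from 11334107 to 12011829, which are normalised values, so the read depth is unknown.

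Few genes passed a test over all genes. Limma with Benjamini-Hochberg adjustment called 3 of 12565 genes at an adjusted p below 0.05, 0.0239% of them: Rbbp7, Enpep and Fabp3, which all fell. The count was 38 without control replicate 2, 10 without Rbbp7 siRNA replicate 1, and 1 without control replicate 1 or Rbbp7 siRNA replicate 2. Without adjustment, 1200 genes had a p below 0.05. In 2473 genes both Rbbp7 siRNA libraries lay below both control libraries, 19.7% of all tested, and in 2498 genes both lay above, 19.9%. These shares are the background for every count of genes without overlap that follows. The median log2 change over all genes was 0.0095, with 6103 genes below zero and 6454 above. A wider separation, a distance of at least 1 on the log2 scale between the nearest libraries of the groups, was found for 80 genes in the lower direction (0.637%) and 59 in the higher direction (0.47%). Most of those were scarce transcripts: the higher of the group means reached 100 in 17 of the 80 and in 8 of the 59.

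Enpep and Fabp3, the called genes other than the target, are both outer-cell genes of metabolism and the cell surface. Enpep (ENSMUSG00000028024, chromosome 3, 129269175 to 129332720) encodes aminopeptidase A, a membrane peptidase of absorptive surfaces. It read 2056 and 2135 in the control and 681 and 680.4 after Rbbp7 siRNA. The replicates of each group nearly coincided, and Enpep fell to 32.5% of the control (log2 change −1.62 ± 0.14, adjusted p = 0.00547). Fabp3 (ENSMUSG00000028773, chromosome 4, 130308595 to 130315463) encodes the heart-type fatty acid binding protein, which carries fatty acids in the cytoplasm. Its values were 4649 and 4563 in the control and 1984 and 1528 after Rbbp7 siRNA. It fell to 38.1% of the control (log2 change −1.40 ± 0.15, adjusted p = 0.0176), and its libraries did not overlap either. Over all 18 alternatives the log2 change ran from −1.65 to −1.59 for Enpep and from −1.59 to −1.22 for Fabp3, but both calls were lost in some of them. Without control replicate 1 the adjusted p was 0.0644 for Enpep and 0.123 for Fabp3, and without Rbbp7 siRNA replicate 2 it was 0.121 and 0.144. Fabp3 also left the call without either Rbbp4 siRNA library (0.0704 and 0.0713), with the 4 compared libraries alone (0.152) and without an intensity trend in the variance (0.291), where Enpep had 0.18. Of the 75-base words of Fabp3 transcripts, 24.3% occur in its pseudogene Fabp3-ps1 too, and exons of Zcchc17 overlap it on the other strand.

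**Figure D1:**
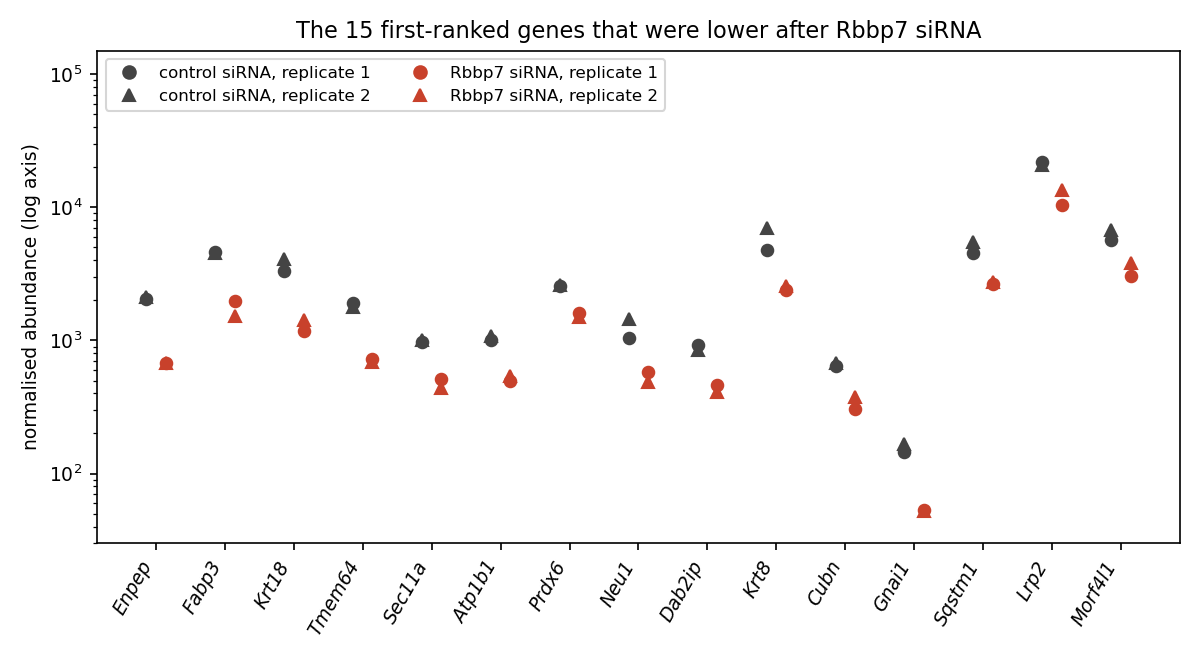
DESeq2-normalised abundance on a log axis of the 15 first-ranked lower genes, with circles for replicate 1 and triangles for replicate 2 of the control (grey) and Rbbp7 siRNA (red) libraries. In each gene both red points sit below both grey points, from Enpep at 681 and 680.4 against 2056 and 2135 to Morf4l1 at 3069.8 and 3829 against 5699.8 and 6787.

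Ranked by unadjusted p among genes whose libraries did not overlap, the first 15 lower genes read 32.5% to 60.5% of the control. The order was taken from the same 4 libraries and the shared spread, so their separation here describes the choice and supports nothing further. The 15th was Morf4l1, and the next, left out, was Plekhb2 with 416 and 447 in the control and 187 and 211 after Rbbp7 siRNA. Of the 15, 6 were on the list of trophectoderm keratins and of surface, secreted and metabolic markers: Enpep, Fabp3, Krt18, Krt8, Cubn and Lrp2.

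Krt18 and Krt8 encode the partner keratins that pair in the filaments of simple epithelia and of the trophectoderm. Krt18 (chromosome 15, 102028180 to 102032027) read 3299.9 and 4116 in the control and 1174 and 1421 after Rbbp7 siRNA. Krt8 (chromosome 15, 101996698 to 102004482) read 4742 and 6946 in the control and 2400.1 and 2575 after Rbbp7 siRNA. Both Rbbp7 siRNA libraries lay well under the lower control library for each keratin, and neither gene passed the test. The log2 change was −1.51 ± 0.19 for Krt18 (adjusted p = 0.0616) and −1.21 ± 0.19 for Krt8 (adjusted p = 0.122). Krt18 passed at a pseudocount of 5 (adjusted p = 0.0489) and when only genes with a mean of at least 50 were tested (0.0421). The ratio of Krt18 to Krt8 within a library was 0.696 and 0.593 in the control and 0.489 and 0.552 after Rbbp7 siRNA. Of the 75-base words of Krt8, 22.0% occur in the pseudogene Krt8-ps. The other type II keratin of the list, Krt7, read 251 and 229 in the control and 52.5 and 139 after Rbbp7 siRNA (−1.47 ± 0.40, adjusted p = 0.277). Krt19, a type I keratin, was scarce and did not share this direction, with 8.27 and 26.1 in the control and 25.8 and 46.5 after Rbbp7 siRNA, where the groups overlapped.

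Cubn and Lrp2 encode cubilin and megalin, large receptors that work together in taking up proteins at apical membranes. Lrp2 (chromosome 2, 69424340 to 69586065) read 21859 and 20929 in the control and 10437 and 13401 after Rbbp7 siRNA, a log2 change of −0.85 ± 0.14 (adjusted p = 0.152). Cubn (chromosome 2, 13276338 to 13491813) read 641 and 676 in the control and 303 and 375 after Rbbp7 siRNA (−0.96 ± 0.15, adjusted p = 0.129). The ratio of Cubn to Lrp2 stayed between 0.028 and 0.0323 in these 4 libraries, so the receptor genes were lower by similar proportions. Amn, whose product amnionless anchors cubilin, was scarce and lay in the other direction, with 67.2 and 96.2 in the control and 118 and 105 after Rbbp7 siRNA.

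The stretches just upstream of the starts of 5 of these 6 genes are shown because the genes were lower together, and they let the reader see what their promoters do and do not have in common. They are from the RefSeq promoter windows of GRCm38.p6, written 5′ to 3′ on the strand of the gene, each cut back to bases outside any annotated exon. For Fabp3 the whole stretch lies in annotated exons and none is shown. Capitals mark matches to any of 5 motifs, each searched on both strands. The motif of the TEAD factors was CATTCC, and that of the GATA factors was AGATAA. The motif of TFAP2 factors was GCCNNNGGC, with any base at N. The E-box was CACGTG, and the GC box was GGGCGG. No match overlaps another in the stretches shown.
Enpep, chr3:129332750-129332999, minus strand: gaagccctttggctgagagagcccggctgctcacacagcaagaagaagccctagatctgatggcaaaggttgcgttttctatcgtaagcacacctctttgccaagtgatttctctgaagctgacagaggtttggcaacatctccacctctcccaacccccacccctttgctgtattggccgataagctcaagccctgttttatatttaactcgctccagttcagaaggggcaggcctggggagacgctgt
Krt18, chr15:102027966-102028179, plus strand: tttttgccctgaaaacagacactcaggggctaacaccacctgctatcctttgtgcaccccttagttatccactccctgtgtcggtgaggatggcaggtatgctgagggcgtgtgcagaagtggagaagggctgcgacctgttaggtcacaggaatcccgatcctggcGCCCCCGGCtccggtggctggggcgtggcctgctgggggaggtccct
Krt8, chr15:102004483-102004592, minus strand: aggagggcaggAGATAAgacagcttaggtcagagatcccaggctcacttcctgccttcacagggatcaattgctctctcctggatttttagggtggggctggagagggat
Cubn, chr2:13491877-13492126, minus strand: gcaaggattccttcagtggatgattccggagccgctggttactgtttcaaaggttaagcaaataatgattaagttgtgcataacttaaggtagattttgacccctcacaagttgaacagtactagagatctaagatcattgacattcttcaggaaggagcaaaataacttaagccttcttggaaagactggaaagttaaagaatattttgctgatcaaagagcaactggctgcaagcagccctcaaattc
Lrp2, chr2:69586066-69586279, minus strand: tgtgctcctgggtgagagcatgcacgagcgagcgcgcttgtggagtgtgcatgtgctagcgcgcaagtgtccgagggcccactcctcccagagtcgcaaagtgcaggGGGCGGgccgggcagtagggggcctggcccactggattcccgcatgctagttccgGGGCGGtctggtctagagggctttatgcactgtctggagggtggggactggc
The stretch of Krt18 holds 1 TFAP2 match, that of Krt8 holds 1 GATA match, and that of Lrp2 holds 2 GC boxes. Those of Enpep and Cubn hold none of the 5 motifs. Krt8 and Krt18 face away from each other, and the starts used by RefSeq are 23874 bases apart. No single motif was shared by the 5 stretches.

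Over whole windows of 300 bases, 250 before and 50 after the start, 13 of the 15 ranked lower genes had an entry, with 16 windows in all. A TFAP2 match was in 6 of them (37.5%), against 25.3% of the 12103 windows of tested genes and 16.6% of all 32851 windows. GC boxes were in 10 of the 16 (62.5%), against 62.8% and 35.7%. None of the 16 windows held a TEAD match, against 11.9% and 14.7%, and 1 held a GATA match (6.25%, against 6.32% and 11.2%). An E-box was in 1 window (6.25%, against 10.1% and 7.15%). Windows of the ranked higher genes gave similar values, with a TFAP2 match in 5 of 15 (33.3%) and a GC box in 7 (46.7%). A match describes letters in the sequence and not a bound site or a cause.

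The other 9 ranked lower genes came from membrane transport, secretion, degradation and signalling. Atp1b1, the β1 subunit of the sodium pump, which is needed for pumping fluid into the blastocyst cavity, read 1000.4 and 1073 in the control and 499 and 544 after Rbbp7 siRNA (−0.99 ± 0.14, adjusted p = 0.0916). Sec11a, a catalytic subunit of the signal peptidase of the endoplasmic reticulum, read 981 and 1001 against 509 and 443 (−1.06 ± 0.14, adjusted p = 0.0695). Tmem64, a transmembrane protein gene, read 1916 and 1774 against 729 and 684 (−1.38 ± 0.18, adjusted p = 0.0616). In each of these 3 genes the nearest libraries of the groups were at least 0.88 apart on the log2 scale. Neu1, the lysosomal sialidase, read 1051 and 1439.8 in the control and 583 and 486 after Rbbp7 siRNA (−1.21 ± 0.18, adjusted p = 0.0916). Sqstm1, the autophagy receptor p62, read 4554 and 5517 against 2674 and 2768 (−0.88 ± 0.15, adjusted p = 0.152). Prdx6, a peroxiredoxin that also has phospholipase activity, read 2542 and 2589 against 1605 and 1497 (−0.73 ± 0.11, adjusted p = 0.0916). The rest of these genes belong to signalling and chromatin. Dab2ip, a GTPase-activating protein for Ras, read 926 and 852 against 466 and 408, and Gnai1, an inhibitory G protein α subunit, read 145 and 166 against 53.1 and 52.2. Morf4l1, the chromodomain protein MRG15 of acetyltransferase and SIN3 complexes, read 5699.8 and 6787 against 3069.8 and 3829, with 7.9% of its 75-base words shared with pseudogenes and other genes. None of these 9 genes passed the test, though Tmem64 and Sec11a each passed under at least 1 alternative. Exons of Nme7 and of Mrnip overlap Atp1b1 and Sqstm1 on the other strand, and the sources used here do not say whether reads were counted by strand.

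Among the trophectoderm keratins and surface, secreted and metabolic markers, 29 of 32 listed genes were tested. Krt20 had no row, and Prss22 and Tmem54 had a mean under 10. The list had 19 members without overlap in the lower direction, 65.5% of the 29 against 19.7% of all genes, and 3 in the higher direction, 10.3% against 19.9%. Its median log2 change was −0.75, against 0.0095 for all genes, and 2 members, Enpep and Fabp3, passed the test. The list was drawn up with earlier results of these data known, so its direction is a description.

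Beside the 6 genes already given, the lower members included markers with several roles. Dppa1, an early embryo transcript, read 172 and 204 in the control and 35.6 and 53.6 after Rbbp7 siRNA, the largest change of the list (−2.08 ± 0.42, adjusted p = 0.168). Plet1, a surface protein of the trophoblast, read 1127 and 1064 against 541 and 780.1 (−0.75 ± 0.20, adjusted p = 0.264). Prss8, the membrane-anchored protease prostasin, read 523 and 617 against 335 and 342 (−0.74 ± 0.21, adjusted p = 0.287). The remaining lower members without overlap were Krt7, Wnt7b, Vtcn1, Anxa3, Lcp1, Tinagl1, Ndrg1, Ptges, Lgals3 and Gm2a, with log2 changes from −0.41 to −1.47. In the other direction stood S100a6, a calcium-binding protein, with 30.1 and 38.1 in the control and 132 and 68.5 after Rbbp7 siRNA. Sfn, the epithelial 14-3-3σ protein, read 9199 and 10072 against 11601 and 11446. Abundant outer-cell genes that overlapped were Cldn4 (7671 and 10181 against 8590.4 and 8135) and the glucose transporter gene Slc2a1 (700.4 and 1139 against 860.1 and 940.2). The list thus held lower, higher and overlapping members.

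**Figure D2:**
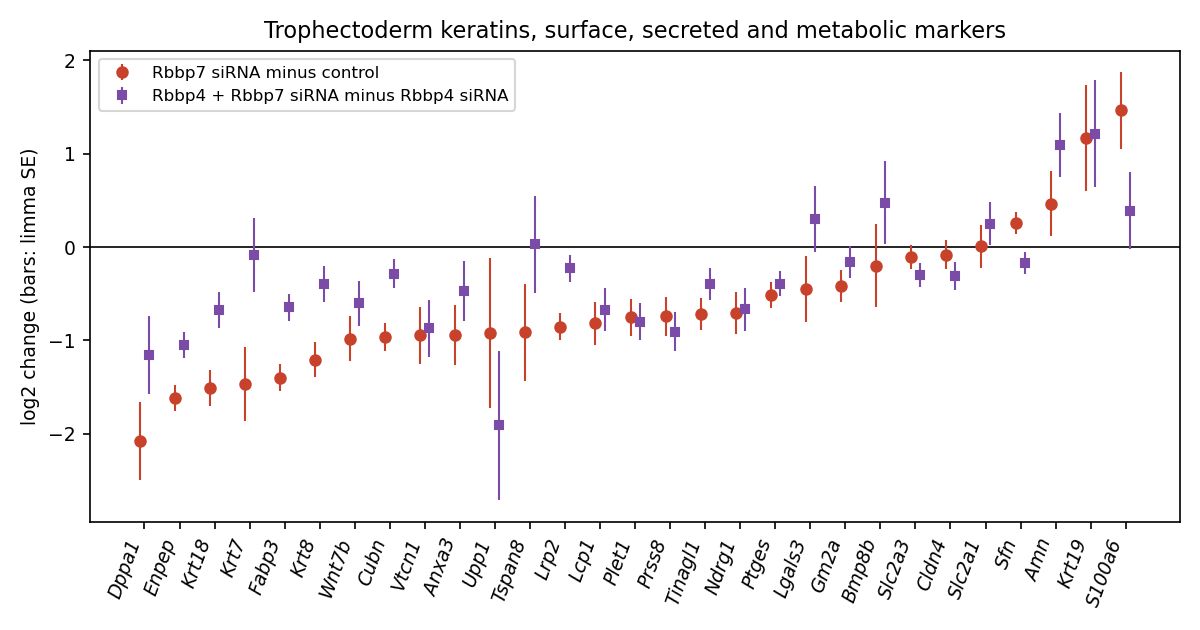
Log2 changes of the 29 tested trophectoderm keratin, surface, secreted and metabolic markers, with limma standard errors, for Rbbp7 siRNA minus control (red circles) and for both siRNAs minus Rbbp4 siRNA (purple squares, 4 other libraries). Red points run from Dppa1 at −2.08 to S100a6 at 1.46, with 24 of 29 below zero.

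The transcription factors of the outer lineage included lower, higher and overlapping genes. Of 30 listed, 27 were tested, since Dlx5 had no row and Gata2 and Dlx3 had a mean under 10. In the lower direction 10 did not overlap (37.0% against 19.7% of all genes) and in the higher direction 3 did not (11.1% against 19.9%). The median was −0.28, and no member passed the test. The median was −0.092 without control replicate 2 and −0.128 without Rbbp7 siRNA replicate 1. The 10 genes were Eomes, Nr2f2, Id2, Gata3, Klf6, Elf3, Grhl2, Tbx20, Wwtr1 and Tead4. Without control replicate 1 the count was 17, where 35.6% of all genes then lay lower, and without Rbbp7 siRNA replicate 2 it was 16 (33% of all genes). It was 12 without control replicate 2 (37.2% of all genes) and 13 without Rbbp7 siRNA replicate 1 (32%). Such a count can only stay or rise when a library is left out.

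Id2, whose product binds E-proteins and keeps them off DNA, marks outer cells early and was first of this list by p. It read 330.3 and 296 in the control and 145 and 132 after Rbbp7 siRNA (−1.17 ± 0.21, adjusted p = 0.152). Gata3 read 2598 and 3065 against 1835 and 2090.0 (−0.53 ± 0.13, adjusted p = 0.252). Both factors were separated from the control, and the nearest libraries of Id2 were 1.02 apart on the log2 scale. Eomes, the T-box factor of the trophoblast, read 223 and 210.4 against 44.7 and 149, and its Rbbp7 siRNA libraries differed widely from each other (−1.39 ± 0.50, adjusted p = 0.422). Elf3, an epithelial Ets factor, read 4607 and 4909 against 3947 and 3431 (−0.37 ± 0.11, adjusted p = 0.318). Cdx2, the defining factor of the lineage, overlapped, with 1771 and 2869 in the control and 1700.1 and 1914 after Rbbp7 siRNA (−0.32 ± 0.21, adjusted p = 0.659). Without control replicate 2 the change of Cdx2 was 0.03, so its sign rests on that library. The upstream factors Tead4 (−0.11 ± 0.14), Yap1 (0.11 ± 0.13), Tfap2c (−0.04 ± 0.13) and Klf5 (0.04 ± 0.11) had changes smaller than or close to their standard errors. Cebpa and Hand1, factors of later trophoblast, lay higher without overlap, with 307 and 393 against 623 and 527 for Cebpa and 722 and 651 against 1005 and 837 for Hand1.

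Junction genes with no overlap lay mostly lower, and the changes were small. In the adherens junction and desmosome list 11 of 21 tested genes were lower (52.4% against 19.7%) and 3 higher, with a median of −0.13 and no call. The desmosome genes led it. Dsp, desmoplakin, which ties keratin filaments to desmosomes, read 2703 and 3016 in the control and 1514 and 2192 after Rbbp7 siRNA (−0.65 ± 0.18, adjusted p = 0.284). Jup, plakoglobin, read 1505 and 2048 against 1299.8 and 1040.3 (−0.59 ± 0.17, adjusted p = 0.308). Epcam, an epithelial adhesion protein, read 3034 and 4101 against 2035 and 2603 (−0.62 ± 0.18, adjusted p = 0.311). Dsc2, desmocollin 2, was scarcer, with 60.3 and 78.8 against 10.9 and 38.7. These 4 genes lay further from the control than the classical cadherin and catenins. E-cadherin, Cdh1, read 6917 and 7086 in the control and 6326 and 6463 after Rbbp7 siRNA (−0.13 ± 0.10, adjusted p = 0.715), and Ctnnb1, β-catenin, lay higher with 4633 and 4909 against 5254 and 6231. Nectin1 and Nectin4 also lay higher (0.47 ± 0.18 and 0.83 ± 0.33).

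Tight junction genes were near the background, with 3 of 18 lower without overlap (16.7% against 19.7%), none higher and a median of −0.08. Tjp1 and Magi3, which encode scaffold proteins under the junction strands, were among the 3. No claudin of the list, and neither Ocln nor F11r, was separated from the control.

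In the list of apical polarity, microvilli and cortex 15 of 35 tested genes were lower without overlap (42.9%) and 2 were higher, with a median of −0.13. Msn, moesin, a linker of membrane and actin in microvilli, read 346 and 691 in the control and 232 and 279 after Rbbp7 siRNA (−0.94 ± 0.30, adjusted p = 0.363). Ezr, its relative ezrin, read 1423 and 1484 against 1061 and 1387 (−0.26 ± 0.16, adjusted p = 0.636). Polarity kinase and adaptor genes differed little, with −0.25 ± 0.12 for Prkci and −0.19 ± 0.13 for Pard6b, and the myosin heavy chain gene Myh9 had −0.27 ± 0.12. Most of the 15 were thus separated by small distances, at most 0.31 on the log2 scale between nearest libraries.

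Genes of cavitation and of ion and water transport divided, with 6 of 20 lower (30%) and 4 higher (20.0%). Atp1b1, a subunit gene of the sodium pump, was lower, as given above. Atp12a, the nongastric hydrogen and potassium pump, read 217 and 242 against 95.8 and 150.4 (−0.92 ± 0.26, adjusted p = 0.287). Of the cation and chloride cotransporter genes, Slc12a2 was lower (3305 and 2639 against 2390.5 and 1897), and Slc12a4 (849.9 and 900.2 against 1641 and 1089.6) and Slc12a7 (0.28 ± 0.12) were higher. The water channel gene Aqp3 overlapped, with 5888 and 6354 against 7660 and 6304.

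Endocytosis genes had the next highest share after the keratin and surface list. In the lower direction 16 of 28 tested genes did not overlap (57.1% against 19.7%), in the higher direction 4 did not (14.3%), and the median was −0.16 with no call. The lower members included Cubn, Lrp2, the caveolin gene Cav2, and coat, adaptor and Rab genes of endocytic uptake. Ap2a2, an α subunit of the AP-2 adaptor, read 7835 and 7144 in the control and 5748 and 5464 after Rbbp7 siRNA (−0.42 ± 0.12, adjusted p = 0.287). The genes of the AP-2 β, μ and σ subunits, Ap2b1, Ap2m1 and Ap2s1, had log2 changes of −0.17, −0.24 and −0.14. Clathrin heavy chain, Cltc, had −0.31 ± 0.13 and light chain, Clta, −0.14 ± 0.10. These members lay in 1 direction, with changes that were small beside that of Lrp2. Cd81, a tetraspanin, and Tfrc, the transferrin receptor, lay the other way. Cd81 read 130.3 and 119 in the control and 240.3 and 245 after Rbbp7 siRNA (0.96 ± 0.20, adjusted p = 0.178), and Tfrc read 4156 and 3616 against 6783 and 5013 (0.59 ± 0.18, adjusted p = 0.314).

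Of 40 tested lysosome genes, 17 were lower (42.5%) and 5 higher (12.5%), with a median of −0.15. Neu1 led, and Smpd1, acid sphingomyelinase, followed with 5161 and 5960.5 in the control and 3689 and 3139.7 after Rbbp7 siRNA (−0.70 ± 0.13, adjusted p = 0.163). Lamp2, a lysosomal membrane protein, read 3686 and 3383 against 2347 and 2307 (−0.60 ± 0.16, adjusted p = 0.259). Grn, progranulin, read 8404 and 8081 against 6476 and 5320.1 (−0.49 ± 0.14, adjusted p = 0.284). The main cathepsin genes did not share this, with Ctsd at 0.07 ± 0.10 and Ctsb at 0.04 ± 0.11. Lipa had a mean under 10.

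In the list of fatty acid binding, uptake, storage and oxidation 13 of 38 tested genes were lower (34.2%) and 3 higher (7.89%), with a median of −0.11, and Fabp3 was its only call. Elovl6, the elongase of palmitate, read 3668 and 4556 in the control and 2315 and 2552 after Rbbp7 siRNA (−0.75 ± 0.16, adjusted p = 0.19). Dgat2, a triglyceride synthesis enzyme, read 299 and 282 against 198 and 101 (−1.03 ± 0.30, adjusted p = 0.308). Cpt2, of fatty acid import into mitochondria, read 236 and 255 against 127 and 165 (−0.76 ± 0.25, adjusted p = 0.368). Cd36 had no row, and 7 others had a mean under 10.

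The Hippo pathway, which keeps YAP out of the nucleus in inner cells, had 6 of 20 tested genes lower (30%) and 3 higher (15.0%) with a median of −0.02, whose sign turned to 0.13 without Rbbp7 siRNA replicate 2. Amot, the angiomotin scaffold of the pathway, read 2456 and 2201 in the control and 1737 and 1745 after Rbbp7 siRNA (−0.42 ± 0.12, adjusted p = 0.292). Ptpn14, a phosphatase that binds YAP, read 176 and 100.2 against 314 and 225 (adjusted p = 0.29). Lats2 shares 40.5% of its 75-base words with an overlapping gene model, so its value is uncertain.

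**Figure D3:**
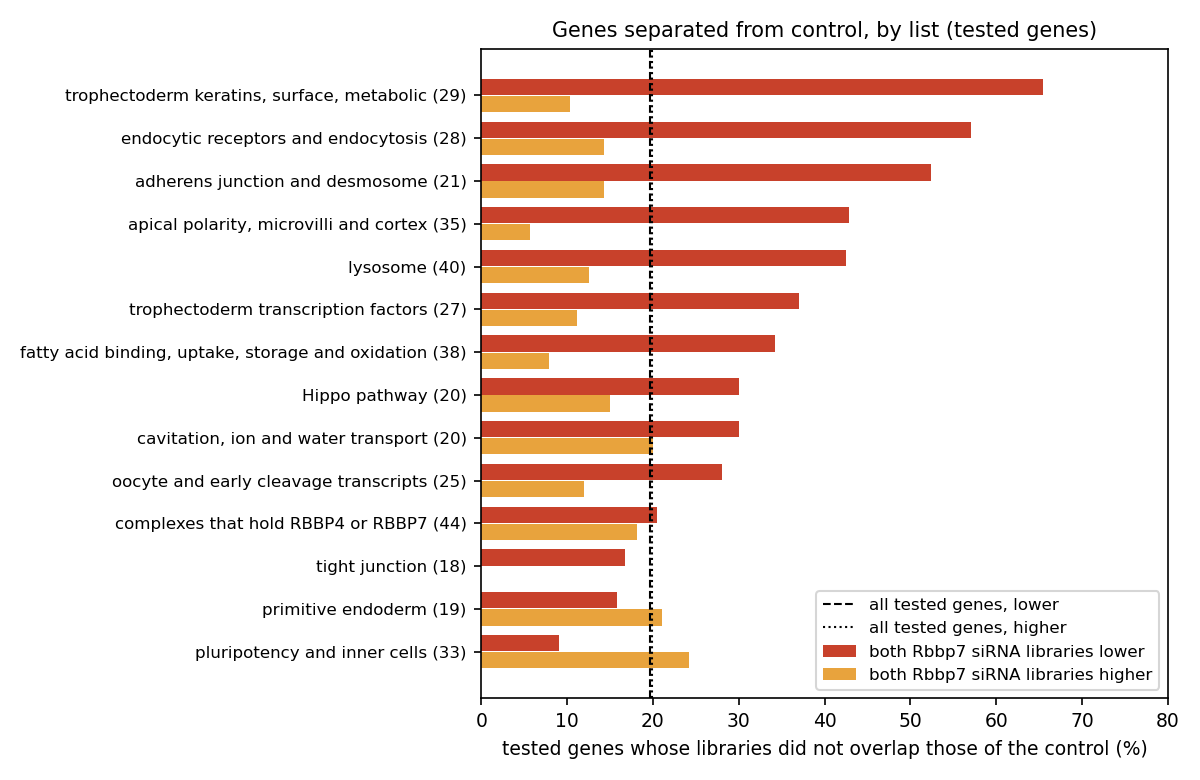
Percentage of the tested genes of each list whose Rbbp7 siRNA libraries both lay below (red) or both above (orange) the control libraries, with the number tested in brackets and dashed and dotted lines at 19.7% and 19.9%, the shares over all genes. The keratin, surface and metabolic list has 65.5% lower and 10.3% higher, and the pluripotency list 9.09% lower and 24.2% higher.

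The inner-cell genes did not share the lower direction. In the list of pluripotency and inner cells 8 of 33 tested genes were higher without overlap (24.2% against 19.9%) and 3 were lower (9.09% against 19.7%), with a median of 0.08 and no call. Nanog, the homeobox factor of the pluripotent inner cells, read 6698 and 6322 in the control and 9093 and 10156 after Rbbp7 siRNA (0.56 ± 0.11, adjusted p = 0.168). Fgf4, the growth factor that inner cells secrete, read 177 and 150.4 against 605 and 385, with the Rbbp7 siRNA libraries apart from each other and both above the control (1.56 ± 0.37, adjusted p = 0.246). Esrrb, a nuclear receptor of naive pluripotency, read 1158 and 1211 against 1807 and 1954 (0.67 ± 0.17, adjusted p = 0.252). These 3 genes had no overlap, while the central factors showed no such separation. Pou5f1 read 13210.4 and 16243 in the control and 17835 and 16019 after Rbbp7 siRNA (0.21 ± 0.14, adjusted p = 0.669). Sox2 was scarce and variable, with 136 and 375 against 61.8 and 205. The ratio of Nanog to Pou5f1 was 0.507 and 0.389 in the control and 0.51 and 0.634 after Rbbp7 siRNA, so it barely separated the groups. Tbx3, Klf4, Gdf3, Pecam1 and Tdgf1 were the other higher members, with log2 changes from 0.27 to 0.46, and Stat3, Utf1 and Dppa3 were the lower ones.

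The primitive endoderm list, of the second inner lineage, had 3 of 19 tested genes lower (15.8%) and 4 higher (21.1%), near the background. Gata6 overlapped, with 5998 and 6258 in the control and 5616 and 6324 after Rbbp7 siRNA (−0.04 ± 0.12, adjusted p = 0.941), and without Rbbp7 siRNA replicate 1 its change was 0.05. Sox17 was scarce, with 10 and 10.3 against 17.8 and 72.8. The basement membrane collagen genes Col4a1 (1403 and 1720.2 against 1992 and 2395) and Col4a2 (816 and 977 against 1099 and 1293) were higher together, and they overlap each other in the genome. Serpinh1, a collagen chaperone, was listed at 26.8 and 48.1 in the control and at 0 in both Rbbp7 siRNA libraries. It was also at 0 in Rbbp4 siRNA replicate 1 and in both double siRNA libraries, and at 40.2 in Rbbp4 siRNA replicate 2. Oocyte and early cleavage transcripts, which embryos clear before this stage or soon after, had 7 of 25 tested genes lower (28.0%) and 3 higher (12.0%), and their summed abundance was 20370 and 22750 in the control and 21930 and 19080 after Rbbp7 siRNA.

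**Figure D4:**
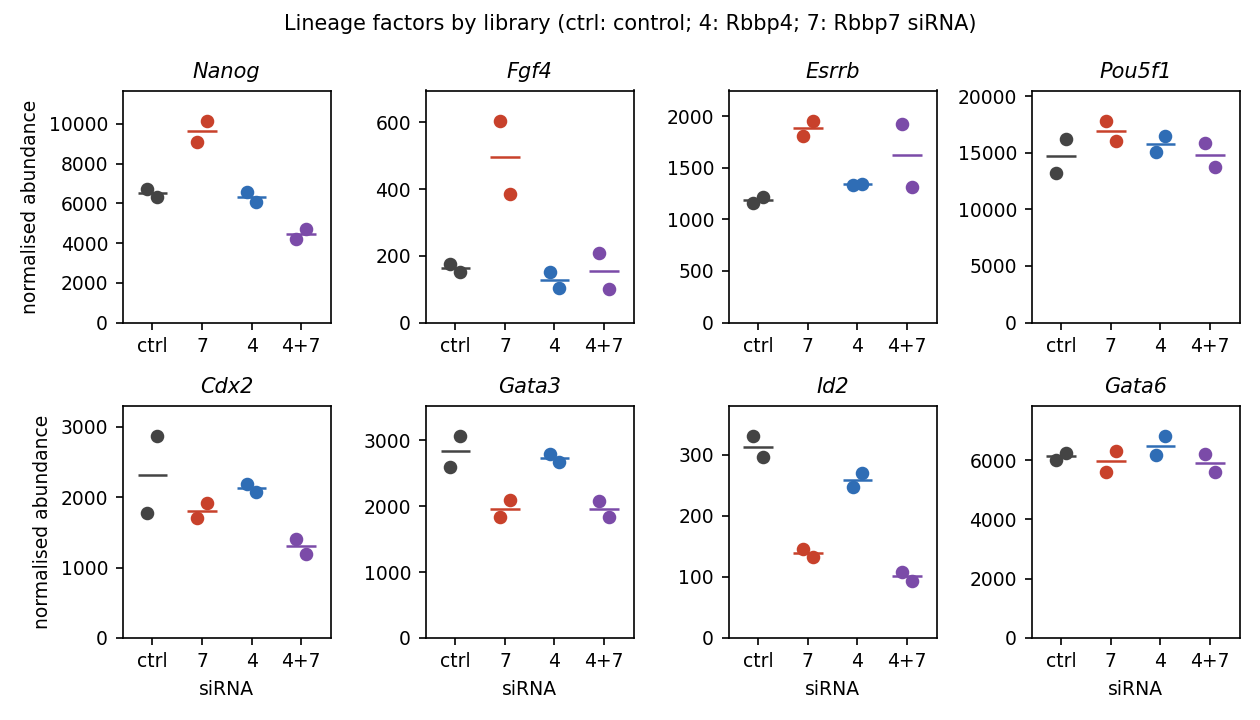
DESeq2-normalised abundance of 4 inner-cell and pluripotency genes, 3 outer-cell factors and Gata6 in each of the 8 libraries, on linear axes from 0, with points for libraries and lines for the mean of 2. Nanog stands at 9093 and 10156 after Rbbp7 siRNA alone and at 4192 and 4692 after both siRNAs, while Id2 stands at 145 and 132 and at 108 and 93.8.

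The 15 first-ranked higher genes were of mixed kinds and none passed the test (adjusted p from 0.0916 to 0.173). Pcnt, pericentrin of the centrosome, read 90.6 and 148 in the control and 562 and 430.5 after Rbbp7 siRNA (2.07 ± 0.31, adjusted p = 0.0916). After Rbbp4 siRNA Pcnt read 504 and 293, also above both control libraries. Ddit4, a stress-induced inhibitor of the mTORC1 kinase, read 2571 and 2967 against 6199 and 4968 (1.01 ± 0.18, adjusted p = 0.152). Hsd17b1, a steroid dehydrogenase, read 125 and 125 against 264 and 301 (1.16 ± 0.21, adjusted p = 0.152). Another of the 15 was a member of a repeated gene family. Trim43b, of a TRIM family expressed in early embryos, read 5347 and 4970.0 against 11451 and 8180.0, and 33.3% of its 75-base words occur in Trim43a or Trim43c, so reads of the 3 genes may be split between them. Trim43c was the 16th gene, with 1006 and 938 in the control and 2014 and 1813 after Rbbp7 siRNA.

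Hdac1, the deacetylase that RBBP4 and RBBP7 accompany in NuRD and SIN3 complexes, was among the ranked higher genes. It read 3726 and 3979 in the control and 5519 and 5804 after Rbbp7 siRNA (0.56 ± 0.11, adjusted p = 0.163), and 29.3% of its 75-base words recur in 26 other genes. Over the 44 tested genes of complexes that hold RBBP4 or RBBP7, 9 were lower (20.5%), Rbbp7 among them, and 8 higher (18.2%), with a median of −0.01, which is the background. Ttc3, a ubiquitin ligase gene, Gprc5c, an orphan receptor gene induced by retinoic acid, Urm1, a ubiquitin-like protein of transfer RNA modification, Sec1, a fucosyltransferase gene, and Nkx6-2, a homeobox gene, had changes of 0.79 to 0.93. Genes with very low control values were ranked too. Cacna1b, a neuronal calcium channel gene, read 6.02 and 7.11 against 60.7 and 67.9, Mdga1 read 9.11 and 4.94 against 67.3 and 64.3, and Grm2 was listed at 1.27 and 0 against 46.7 and 24. Ank2, ankyrin B, read 57.6 and 172 against 408 and 394. After Rbbp4 siRNA Cacna1b read 43.7 and 33.9, Mdga1 75.5 and 22.3, Grm2 4.6 and 7.86 and Ank2 246 and 212. Of the ranked higher genes, all but Hdac1, Trim43b and Nanog lay above both control libraries after Rbbp4 siRNA too. For Gprc5c and Urm1 the nearest libraries were only 0.005 and 0.007 apart on the log2 scale. The share of all genes that did so is not given here. The same control libraries stand in both comparisons and were used to choose these genes as higher, so this is a description and supports nothing further. Control replicate 1 listed more genes at 0 than any other library, and its part in the low control values was not tested.

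The same siRNA was also given on top of Rbbp4 siRNA, in 4 libraries that took no part in choosing the direction of the ranked genes. Their spread did enter the p that ranked the genes, which favours genes with close replicates there. Counts of ranked genes without overlap in these libraries are therefore a description. Over all genes 2699 lay lower without overlap in embryos given both siRNAs than in those given Rbbp4 siRNA (21.5%) and 2623 higher (20.9%), and limma called 2 genes (0.0159%), Rbbp7 and Ndufa9. All 15 ranked lower genes had a negative change there, and 14 of the 15 did not overlap, with Tmem64 the exception (1628 and 2153 with Rbbp4 siRNA, 2104 and 1564 with both). Leaving out any 1 of these 4 libraries gave 14 or 15 of 15, where 33.2% to 38.3% of all genes then lay lower. Such a count can only stay or rise when a library is left out, so this is no check on single libraries. Their median change was −1.06 after Rbbp7 siRNA alone and −0.39 on top of Rbbp4 siRNA, and the ranking itself favours large values in the first. Enpep read 2508 and 2311 with Rbbp4 siRNA and 1029 and 1317 with both (−1.05 ± 0.14, adjusted p = 0.0895), and Fabp3 read 3412 and 3968 against 2465 and 2242 (−0.65 ± 0.15, adjusted p = 0.243). Krt18 read 3217 and 2395 against 1545 and 1959 (−0.67 ± 0.19), and Krt8 read 5272 and 4737 against 3326 and 4333 (−0.40 ± 0.19). None of the 15 passed this test by itself. Double siRNA replicate 1 stood apart in the Y-linked transcript Ddx3y, with 71.8 against 519 to 1022 in the other 7 libraries. The Y-linked Eif2s3y and Uty were also lowest there, at 71 and 20.6, and Kdm5d, at 110, was not. Without double siRNA replicate 1 all 15 genes lay lower.

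Of the 15 ranked higher genes, 10 had a positive change on top of Rbbp4 siRNA, 8 did so without overlap and 2, Nanog and Ttc3, lay lower without overlap. Without Rbbp4 siRNA replicate 1 the count of 8 became 12, where 32.2% of all genes then lay higher. Without double siRNA replicate 2 it became 10 (38% of all genes), and such a count can only stay or rise. Nanog read 6545 and 6051 with Rbbp4 siRNA and 4192 and 4692 with both (−0.50 ± 0.11, adjusted p = 0.243), the reverse of its higher level after Rbbp7 siRNA alone. The test of that difference, the interaction of the siRNAs, gave an adjusted p of 0.369 for Nanog, and 0.562 was the smallest among the 15 lower genes. Over all genes the interaction called 1 gene (0.00796%), Ndufa9, so none of the ranked genes passed this test, which does not show that their changes were alike. The keratin, surface and metabolic list had 20 of 29 genes lower in these libraries (69.0% against 21.5%), 16 of them lower in both settings, with a median of −0.39. Over all genes 772 were lower and 706 higher without overlap in both settings. Among the transcription factors 10 of 27 were lower (37.0%) and 4 higher (14.8%), with a median of −0.07. Elf3, Gata3, Grhl2, Id2 and Klf6 were lower in both settings. Id2 read 248 and 270.2 with Rbbp4 siRNA and 108 and 93.8 with both (−1.35 ± 0.21, adjusted p = 0.112). Endocytosis genes had 11 of 28 lower (39.3%), 10 of them in both settings, and 7 higher (25.0% against 20.9%). Lysosome genes had 10 of 40 lower (25.0%, near the 21.5% of all genes), with Grn, Neu1 and Smpd1 lower in both. Apical and cortex genes had 22.9% lower and 11.4% higher, and adherens junction and desmosome genes 38.1% and 28.6%. The pluripotency list had 27.3% lower and 12.1% higher. Lower shares were 33.3% for tight junction, 36.8% for fatty acid and 35.0% for Hippo genes.

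**Figure D5:**
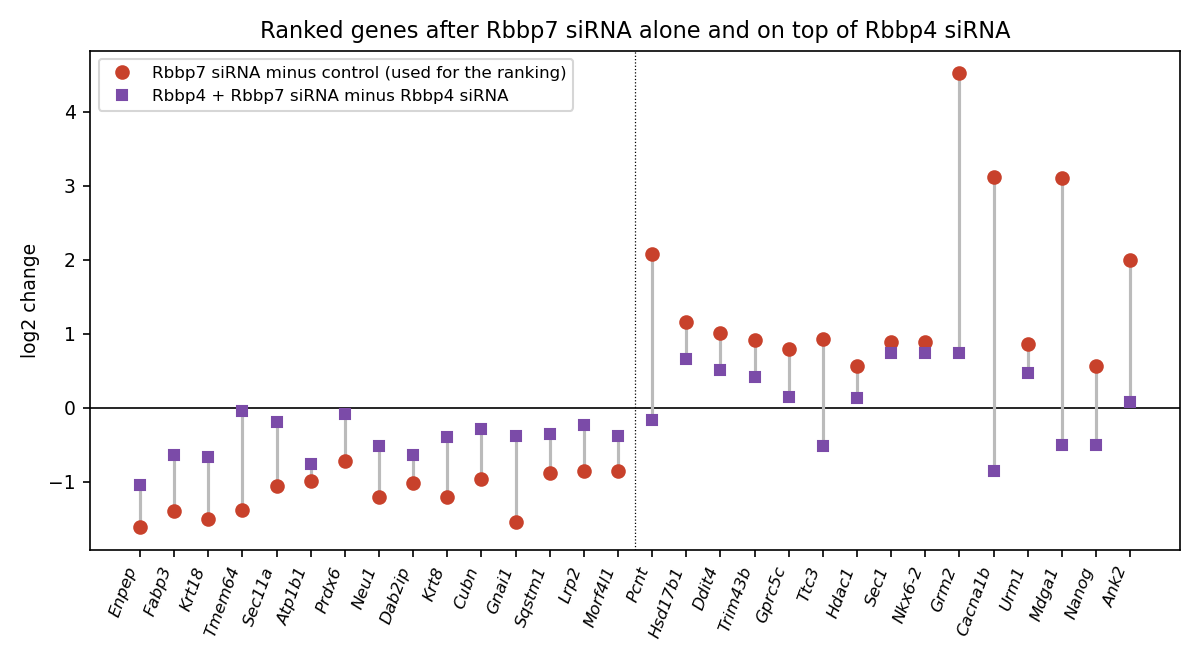
Log2 changes of the 30 ranked genes after Rbbp7 siRNA alone (red circles, which chose the genes) and on top of Rbbp4 siRNA (purple squares, 4 other libraries), joined by grey lines. All 15 purple squares of the lower genes on the left are below zero, and 10 of the 15 on the right are above it.

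Rbbp7 siRNA was also compared with Rbbp4 siRNA. The ranked genes were chosen with the same Rbbp7 siRNA libraries, so calls among them are a description here and support nothing further. Over all genes 2872 were lower without overlap (22.9%) and 2854 higher (22.7%), and limma called 10 genes (0.0796%). The count was 6 without Rbbp7 siRNA replicate 2, 18 with the 4 compared libraries alone and 65 with array weights. Of the 10, 5 were ranked lower genes: Enpep (−1.82 ± 0.14, adjusted p = 0.000991), Cubn (−1.49 ± 0.15, adjusted p = 0.00823), Neu1 (−1.46 ± 0.18, adjusted p = 0.025), Tmem64 (−1.41 ± 0.18, adjusted p = 0.0301) and Fabp3 (−1.08 ± 0.15, adjusted p = 0.0456). Cubn read 1004 and 898 after Rbbp4 siRNA and 303 and 375 after Rbbp7 siRNA, on either side of the control. Neu1 read 1371 and 1573 after Rbbp4 siRNA against 583 and 486. The other 5 called genes were Rbbp4 and Rbbp7, Ndufa9, Dcbld2 and Gm12613. Krt18 (−1.10, adjusted p = 0.106) and Krt8 (−1.01, adjusted p = 0.121) did not pass in this comparison, and the ranked higher genes had no call.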

How the data were processed

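The authors' deposited table gives, per gene and library, a signal: gene read counts divided by library size factors with DESeq2. Per the submitters' processing notes the reads were trimmed with Trimmomatic, aligned with HISAT2 to GRCm38 and counted with featureCounts. Their versions and the strand setting are not given in the sources used. Per the labels' protocols, polyadenylated RNA was enriched with oligo(dT) beads and amplified by PCR. The column of every library was matched to its title.

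Ensembl IDs matched symbols and GENCODE vM21 positions for 18942 of 19058 genes. Values were analysed as log2(value + 1) in R 4.3.3 with limma 3.58.1 (1 mean per group, intensity trend, all 8 libraries, 4 residual degrees of freedom) and two-sided tests with Benjamini-Hochberg adjustment over 12565 genes. Every ± is limma's standard error, with 2 libraries a group. Whole reads could not be recovered, so no count model was used. The fit was tested on simulated data. Groups overlap unless both libraries of 1 lie beyond both of the other. Named were the first 15 genes in each direction without overlap (gene models with numbers only aside), genes called, up to 6 members without overlap of each lineage, epithelial or metabolic list, and defining lineage genes. Other members are named as list contents. The members and lists were chosen with earlier results of these data known. Shared words are 75-base stretches of a gene's transcripts that occur in transcripts of another gene. Replicate numbers did not pair the libraries: the correlation of same-numbered differences ran from −0.0221 to 0.051. Values of some members of the gene lists are not reported here.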

Additional observations from a re-analysis of the deposited data

Results flagged for a closer look

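Ndufa9 encodes a subunit of mitochondrial complex I. It was the 1 gene whose response to Rbbp7 siRNA was called as different between the settings (limma interaction, adjusted p = 0.00344). It read 276 and 468 in the control, 459 and 172 after Rbbp7 siRNA, and 476 and 323 after both siRNAs. It was listed at 0 in both Rbbp4 siRNA libraries, so no fold is given, and the difference comes from those 2 libraries. Rbbp7 siRNA alone left it overlapping with the control (−0.35 ± 0.48, adjusted p = 0.854).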

How the results depend on the processing

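Of 203 recomputed summary values, 153 stayed within the limits set for them. Many of these could not move, so the tally overstates how stable the results are. Counts without overlap and list medians do not depend on the variance model or on libraries of groups not compared. A count without overlap can also only stay or rise when a library is left out. The count of called genes was 5 at a pseudocount of 5, 6 with a mean of at least 50, and 1 to 38 when 1 library was left out (38 without control replicate 2, 10 without Rbbp7 siRNA replicate 1, 1 without control replicate 1 or Rbbp7 siRNA replicate 2). With the replicate block it was 3, and the block moved the call of no named gene. Leaving out 1 library gave 2473 to 4672 genes without overlap in the lower and 2498 to 4814 in the higher direction. Genes at least 1 apart numbered 274 lower and 342 higher with no filter, 23 and 11 with a mean of at least 50, 35 higher at a pseudocount of 5, and 80 to 328 lower and 59 to 470 higher without 1 library. Without 1 library the calls for both siRNAs against Rbbp4 siRNA numbered 2 to 13 (above 2 without any library except those of Rbbp7 siRNA), those of the interaction 1 to 21 (21 without control replicate 2, above 1 without any library except control replicate 1 and Rbbp7 siRNA replicate 2), and those for Rbbp7 against Rbbp4 siRNA 6 to 14 (6 without Rbbp7 siRNA replicate 2). The last were 18 with the 4 compared libraries and 65 with array weights. The median of the outer-lineage transcription factors was −0.245 with a mean of at least 50, −0.246 with quantile normalization and −0.277 to −0.092 without 1 library. Their count of lower genes was 12 to 17 without 1 library of the compared groups, where 32% to 37.2% of all genes then lay lower. It was added after seeing the data. Leaving out 1 library reversed the median of the cavitation list (−0.081 to 0.017, positive without control replicate 2), that of the Hippo list (−0.132 to 0.132, without Rbbp7 siRNA replicate 2), Cdx2 (−0.669 to 0.027, without control replicate 2) and Gata6 (−0.125 to 0.046, without Rbbp7 siRNA replicate 1). The cause was not tested. The other 93 of 95 named genes, with all 30 ranked ones, kept their sign under each alternative that gave them a value, at most 18. For genes chosen for having no overlap, leaving out 1 library could not turn the sign. Changes to the variance model left their log2 changes as they were. The kept signs therefore mostly describe the choice of genes. With a mean of at least 50, Grm2, Cacna1b, Mdga1, Serpinh1 and Sox17 gave none. With 2 libraries a group and unknown depth, values near 0 are the least certain.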
